A study of Mus musculus with 8 samples.

Results

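The nuclear genes for the subunits of respiratory complexes II, III and V were followed in hearts of mice that lack LRPPRC in heart and skeletal muscle. The members are the protein-coding genes whose GENCODE symbols are Sdha, Sdhb, Sdhc or Sdhd, begin with Uqcr, are Cyc1, or begin with Atp5, without pseudogenes. They number 30 of 50599 records in the gene tables, with 4 genes for complex II, 9 for complex III and 16 for complex V. The remaining member, Atp5s, matches by symbol but encodes no subunit and is given apart. Usmg5, which encodes a small subunit of the ATP synthase, is not among these symbols and is also given apart.

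LRPPRC is a mitochondrial RNA-binding protein of the pentatricopeptide repeat family that, with SLIRP, stabilises mitochondrial mRNAs. Total RNA from whole hearts of 12-week-old male C57BL/6N mice was sequenced from 4 Lrpprc knockout and 4 wildtype animals. The knockouts were conditional Lrpprc loxP/loxP mice with Cre, restricted to heart and skeletal muscle, and the animals labelled wildtype were loxP/loxP without Cre according to the study's methods. The promoter that drives Cre is not given in the sources used here, and a whole heart also holds cells that keep Lrpprc, so residual Lrpprc RNA is measured with the rest. The labels name no treatment in either group.

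Complex II, succinate dehydrogenase, passes electrons from succinate of the citric acid cycle to ubiquinone, and all of its subunits are nuclear. Complex III carries electrons from ubiquinol to cytochrome c and complex V, the ATP synthase, uses the resulting proton gradient to make ATP. Both of these contain mitochondrially encoded subunits, cytochrome b in complex III and ATP8 and ATP6 in complex V, beside many nuclear ones, so the RNAs compared here have partners made inside the organelle. The heart holds these enzymes in great amounts because it depends on oxidative phosphorylation.

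The promoters shown next are those of subunits that fell under every setting tried (Uqcr11, Atp5k and Atp5e) and of subunits among the least changed whose promoter was in the table used (Uqcr10 and Atp5g1), so that the letters stand beside the values that follow. Atp5j also fell under every setting, but the bases before it lie in Gabpa and are not shown. They are RefSeq sequences of GRCm38.p6, all on the minus strand, written 5′ to 3′ along the gene, and each is a run of 150 bases that ends before both the RefSeq start and the 5′ end of the GENCODE gene. Uqcr11 lies at chr10:80406831-80406980, Atp5k at chr5:108434449-108434598, Atp5e at chr2:174464106-174464255, Uqcr10 at chr11:4704345-4704494 and Atp5g1 at chr11:96075671-96075820. Capitals mark the ETS motif CCGGAAG, which GABP binds, or the SP motif GGGCGG, on either strand.
Uqcr11: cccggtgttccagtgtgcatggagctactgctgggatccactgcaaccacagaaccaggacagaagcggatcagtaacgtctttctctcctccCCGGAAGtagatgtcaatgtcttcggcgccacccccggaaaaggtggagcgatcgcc
Atp5k: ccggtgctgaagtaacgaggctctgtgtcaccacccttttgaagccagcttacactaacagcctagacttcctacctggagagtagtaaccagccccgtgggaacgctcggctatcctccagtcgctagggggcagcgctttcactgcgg
Atp5e: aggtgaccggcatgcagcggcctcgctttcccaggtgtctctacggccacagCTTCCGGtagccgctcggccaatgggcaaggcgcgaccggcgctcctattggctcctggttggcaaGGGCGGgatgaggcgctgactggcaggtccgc
Uqcr10: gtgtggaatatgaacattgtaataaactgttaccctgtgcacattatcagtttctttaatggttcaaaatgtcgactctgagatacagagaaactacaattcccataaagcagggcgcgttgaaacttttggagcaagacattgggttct
Atp5g1: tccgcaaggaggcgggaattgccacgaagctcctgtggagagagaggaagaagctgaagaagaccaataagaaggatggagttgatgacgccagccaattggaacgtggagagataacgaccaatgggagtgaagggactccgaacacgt

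Promoters were found in the RefSeq table for 23 of the 30 members. The letters were searched on both strands from 250 bases before to 50 bases after the start, and no overlap between different motifs was found in the members' promoters. The ETS motif stood in 9 of 23 member genes, or 39.1%, and in 9.93% of all 27025 genes of the table. It was found at 7 of the 13 matched members that were lower in the knockout (below) and at 2 of the 10 others. In Uqcr11 it lay 66 to 60 bases before the RefSeq start, and in Atp5e 102 to 96 bases before it. Atp5k also held the ETS motif and the ERR motif described next, both outside the stretch printed above. The NRF1 core TGCGCA stood in 6 of 23 members (26.1%) and 8.79% of all genes, with 3 of 13 and 3 of 10 in the lower and other members. AAGGTCA, the ERR motif to which oestrogen-related receptors bind, stood in 5 members (21.7%) and in 5.38% of all genes, with 2 of 13 and 3 of 10 in the lower and other members. YY1's ATGGCGG was in 2 members (8.7%; 1 of 13 and 1 of 10) against 4.69% of all genes, GGGCGG in 8 (34.8%; 4 of 13 and 4 of 10) against 38.2%, and the ATF4 composite TTGCATCA in 0 of 23 against 1.03%. These counts describe letters in a window and no binding was measured.

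Lrpprc itself fell from 3665 ± 216 to 577 ± 48.6 normalised counts (SD, n = 4), a log2 fold change of -2.67 ± 0.10 (SE). Total expected counts per library ranged from 35218541 to 47743376, of which mitochondrial rRNA took 44.0 to 46.9% in the wildtype and 65.6 to 67.8% in the knockout. The 30 members together held 0.839 to 0.890% of the counts in the wildtype and 0.562 to 0.657% in the knockout. Knockout 3 stood apart from the other libraries on the second principal component (15.9% of the variance), at 68.47 against -27.28 to -22.88 for the other knockout libraries. The counts of members and the members whose call turns on it are given with and without it. Values below are counts normalised by the median of ratios and by effective length, and p values are from DESeq2, adjusted by Benjamini-Hochberg over all genes with a threshold of 0.05. The sample titles give only genotype and replicate number, and the study's methods state that 4 hearts of each group were sequenced.

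The subunit mRNAs that passed the test in the knockout hearts were lower, at 57.7 to 82.5% of the wildtype mean. Of the 30 members, 15 fell and 0 rose in the knockout, while 15.5% of the 19959 genes tested were lower and 18.2% were higher. The fitted log2 fold change was negative in 28 members. In 16 members the highest of the 4 knockout libraries lay under the lowest of the 4 wildtype libraries, which was the case for 16.4% of all genes. The reverse was the case in 0 members and in 3328 of the 19959 genes tested. By edgeR's quasi-likelihood test, 17 members were lower and 0 higher, beside 3098 lower and 3171 higher among all genes. All 30 members passed the filter on low counts that DESeq2 applies. These directions rest on the median-of-ratios scaling. Scaled by total counts without mitochondrial rRNA (below), 4 members were lower and 11 higher, beside 5.26% and 37.8% of all genes.

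**Figure D1:**
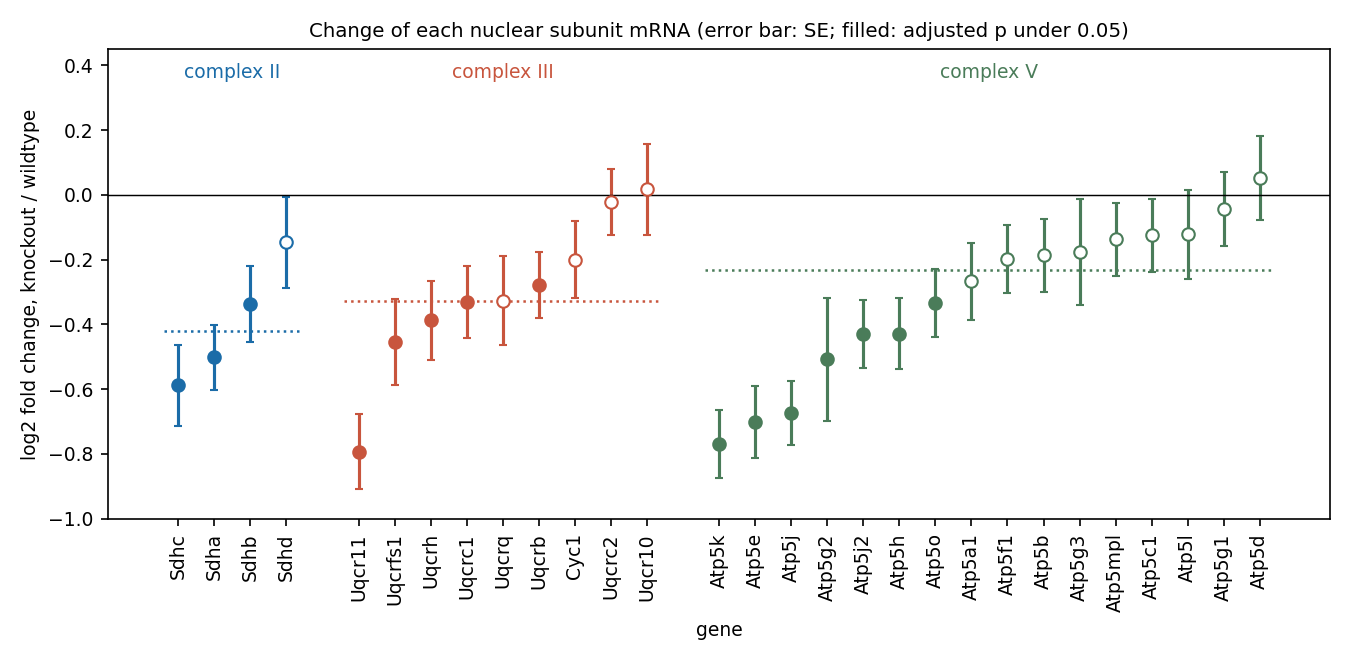
The plot gives the log2 fold change between knockout and wildtype (vertical axis) of each of 29 subunit genes (horizontal axis), ordered within complexes II, III and V, with the SE as the error bar and 4 libraries in each group. Filled points have an adjusted p under 0.05, and dotted lines are the medians of the complexes, at -0.42, -0.33 and -0.23; the values run from -0.79 in Uqcr11 to 0.05 in Atp5d.

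Complex II had 3 of its 4 mRNAs lower in the knockout, with a median log2 fold change of -0.42 beside 0.005 over all genes. SDHA and SDHB form the catalytic part, with the flavin and the iron-sulphur clusters, and SDHC and SDHD anchor it in the inner membrane. Sdhc fell furthest, and its partner in the membrane, Sdhd, did not pass the test. Sdhc had normalised counts of 4889, 5132, 4884 and 5341 in wildtype 1 to 4 and of 3476, 3049, 4078 and 2869 in knockout 1 to 4. The groups did not overlap, and knockout 3 was the highest of the knockouts. Its log2 fold change was -0.59 ± 0.13 (SE; DESeq2 adjusted p = 2.24e-05), or 66.5% of the wildtype mean. Sdha counted 19620, 18810, 16820 and 18040 in the wildtype and 13290, 11860, 14510 and 12090 in the knockout. Here too the groups were apart, and the log2 fold change was -0.50 ± 0.10 (SE; DESeq2 adjusted p = 4.69e-06).

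Sdhb, the iron-sulphur subunit, counted 9054, 8796, 8673 and 9112 in the wildtype and 7125, 6605, 8440 and 6042 in the knockout. Knockout 3 was just under the lowest wildtype library, and the log2 fold change was -0.34 (DESeq2 adjusted p = 0.0134). Without knockout 3 it was -0.44. Sdhd counted 5233, 5167, 5400 and 5414 in the wildtype and 4571, 4276, 6222 and 4088 in the knockout. Knockout 3 was above every wildtype library while the other knockouts were below them all. With all libraries the log2 fold change of Sdhd was -0.15 (DESeq2 adjusted p = 0.459), and without knockout 3 it was -0.30 (DESeq2 adjusted p = 2.56e-04).

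Complex III had 5 of 9 mRNAs lower, with a median of -0.33. Its catalytic nuclear subunits are cytochrome c1 (Cyc1) and the Rieske iron-sulphur protein (Uqcrfs1), which hand electrons on to cytochrome c. Uqcrfs1 counted 7898, 7741, 8229 and 8005 in the wildtype and 5315, 5538, 7385 and 5009 in the knockout. The groups did not overlap, and the log2 fold change was -0.46 ± 0.13 (SE; DESeq2 adjusted p = 0.00276). Cyc1 counted 6940, 6930, 7177 and 6920 in the wildtype and 5808, 5754, 7443 and 5335 in the knockout. Knockout 3 exceeded all wildtype libraries, and the log2 fold change of -0.20 did not pass (DESeq2 adjusted p = 0.187). Without that library it was -0.31 (DESeq2 adjusted p = 2.71e-05).

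The 2 core proteins of complex III, which face the matrix and are related to processing peptidases, differed in their values. Uqcrc1 counted 14830, 15210, 14470 and 14520 in the wildtype and 11750, 11180, 13920 and 10120 in the knockout, at -0.33 on the log2 scale (DESeq2 adjusted p = 0.0114). Uqcrc2 ranged from 11020 to 11390 in the wildtype and from 9857 to 12950 in the knockout; the fitted log2 difference was -0.02 ± 0.10 (SE; DESeq2 adjusted p = 0.898). The 2 proteins form one dimeric core, whereas the mRNAs stood at 79.6% and 98.5% of the wildtype mean.

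Among the 5 small subunits of complex III, Uqcr11 had the largest fall of any member. It counted 5298, 5279, 5301 and 5143 in the wildtype and 3269, 2875, 3487 and 2499 in the knockout. All knockout libraries were far below all wildtype libraries, including knockout 3, and the log2 fold change was -0.79 ± 0.12 (SE; DESeq2 adjusted p = 2.4e-10), or 57.7% of the wildtype mean. Uqcrh, the hinge protein that binds cytochrome c1, counted 6381, 6017, 6066 and 6006 in the wildtype and 4593, 4581, 5657 and 3886 in the knockout. It fell by 0.39 on the log2 scale with the groups apart (DESeq2 adjusted p = 0.00652). Uqcrb, a subunit near the quinone-binding site, was at -0.28 (DESeq2 adjusted p = 0.0235). Uqcrq was at -0.33 and missed the threshold (DESeq2 adjusted p = 0.0526), although its 4 knockout libraries were below its 4 wildtype libraries; without knockout 3 it was at -0.38 (DESeq2 adjusted p = 0.0136).

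Uqcr10, another small subunit, stood against this. It counted 3090, 2976, 3102 and 2908 in the wildtype and 3121, 2776, 3840 and 2480 in the knockout. The groups overlapped and the log2 fold change was 0.02 ± 0.14 (SE; DESeq2 adjusted p = 0.946). UQCR10 and UQCR11 are both single-span membrane subunits of the same complex. The ratio of their TPM in a library, which no scaling of the library can alter, was 1.65, 1.71, 1.65 and 1.71 in the wildtype and 1.01, 1.0, 0.877 and 0.973 in the knockout.

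**Figure D2:**
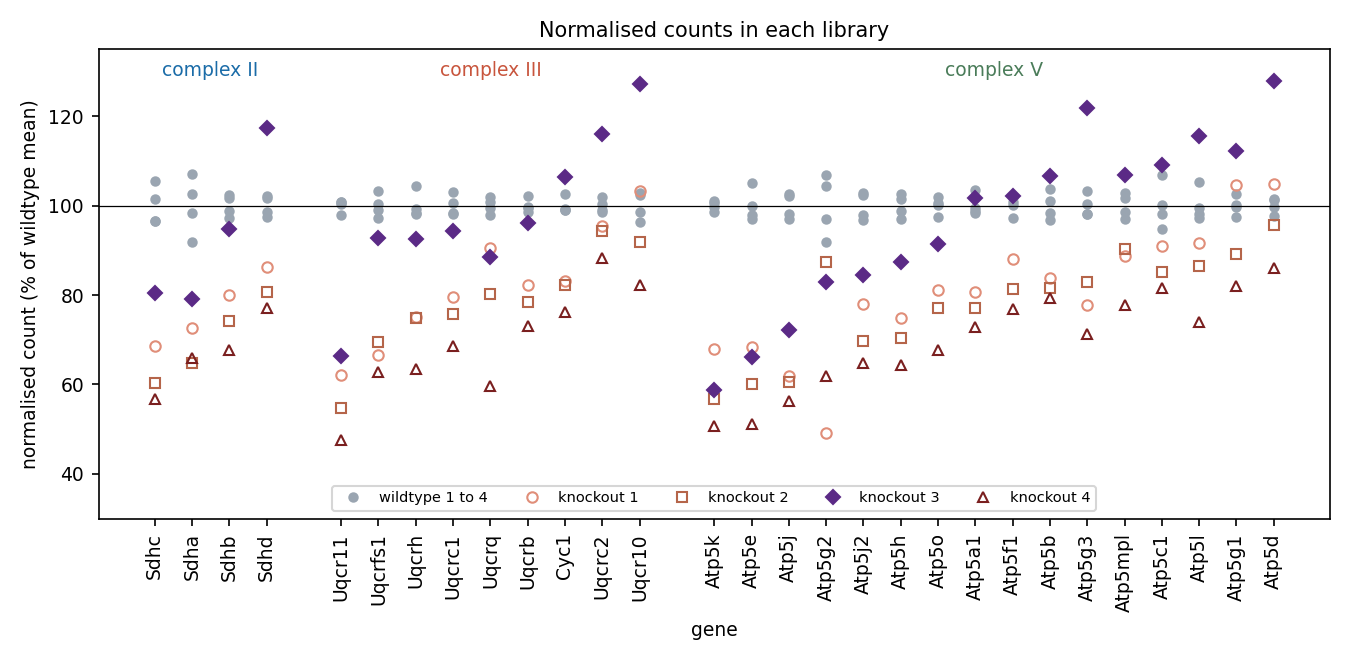
The plot gives the normalised count of each subunit gene (horizontal axis, same order as the fold changes) in every library as a percentage of the wildtype mean (vertical axis). Grey points are the 4 wildtype libraries and open symbols knockouts 1, 2 and 4; knockout 3, the filled diamond, is the highest knockout library in 25 of 29 genes and knockout 4, the triangle, the lowest in 27 of 29.

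Complex V had 7 of its 16 mRNAs lower and a median of -0.23. The F1 head makes ATP with the alpha and beta subunits (Atp5a1, Atp5b) around a central stalk of gamma, delta and epsilon (Atp5c1, Atp5d, Atp5e). With all libraries, Atp5e alone of these 5 passed the test in DESeq2. It counted 3204, 2988, 3050 and 2958 in the wildtype and 2088, 1836, 2017 and 1558 in the knockout. Its log2 fold change was -0.70 ± 0.11 (SE; DESeq2 adjusted p = 5.58e-09) and the groups did not overlap.

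Atp5d, its neighbour in the stalk, counted 5338, 5327, 5250 and 5139 in the wildtype and 5520, 5042, 6729 and 4530 in the knockout. The knockout libraries lay on both sides of the wildtype, and the fitted log2 difference was 0.05 ± 0.13 (SE; DESeq2 adjusted p = 0.804). Atp5b, the catalytic beta subunit and the most abundant of the subunit mRNAs per length, counted 68800, 66950, 64230 and 65220 in the wildtype and 55560, 54040, 70670 and 52640 in the knockout. Its value of -0.19 (DESeq2 adjusted p = 0.204) became -0.30 without knockout 3 (DESeq2 adjusted p = 1.74e-05). Atp5a1 was at -0.27 (DESeq2 adjusted p = 0.0655, edgeR adjusted p = 0.0453) and Atp5c1 at -0.12 (DESeq2 adjusted p = 0.429). Without knockout 3 both passed, at -0.38 and -0.22 (DESeq2 adjusted p = 1.56e-07 and 0.0158).

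The peripheral stalk holds the head still against the turning rotor, and 3 of its 4 mRNAs were lower. Atp5j, for coupling factor 6, counted 3657, 3641, 3461 and 3503 in the wildtype and 2208, 2158, 2574 and 2008 in the knockout. The groups were well apart, with a log2 fold change of -0.67 ± 0.10 (SE; DESeq2 adjusted p = 2.14e-10). Atp5j shares its start region with Gabpa on the opposite strand, which averaged 951 counts to 2950 for Atp5j, and the counting was reverse-stranded. Atp5h (subunit d) was at -0.43 and Atp5o (the oligomycin sensitivity-conferring subunit) at -0.33, with DESeq2 adjusted p values of 5.47e-04 and 0.00679. Atp5f1 (subunit b) was at -0.20 and did not pass (DESeq2 adjusted p = 0.14), and without knockout 3 it was at -0.28 (DESeq2 adjusted p = 7.54e-04).

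The 4 supernumerary membrane subunits help the ATP synthase to dimerise and shape the cristae. Atp5k, subunit e, counted 3896, 3952, 3933 and 3857 in the wildtype and 2658, 2222, 2301 and 1986 in the knockout. Knockout 1 was the highest of the knockouts here, knockout 3 lay with the others far below the wildtype, and the log2 fold change was -0.77 ± 0.11 (SE; DESeq2 adjusted p = 4.64e-12), or 58.6% of the wildtype. Atp5j2 (subunit f) was at -0.43 (DESeq2 adjusted p = 2.52e-04). Atp5l (subunit g), which forms a pair with subunit e in the membrane, was at -0.12 and Atp5mpl at -0.14, with DESeq2 adjusted p values of 0.542 and 0.374. Without knockout 3 they were at -0.25 and -0.23 and passed (DESeq2 adjusted p = 0.0222 and 0.0279). Usmg5, outside the symbol rule and named because it is a further subunit of this group, was at -0.46 (DESeq2 adjusted p = 0.00376). Atp5s, which is no subunit, was at -0.17 (DESeq2 adjusted p = 0.413).

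The rotor ring of subunit c comes from 3 genes, Atp5g1, Atp5g2 and Atp5g3, whose mature proteins are the same. Atp5g1 counted 13080, 13430, 13760 and 13370 in the wildtype and 14030, 11950, 15050 and 11010 in the knockout, at -0.04 on the log2 scale (DESeq2 adjusted p = 0.816). Atp5g3 counted 9850, 9587, 9374 and 9354 in the wildtype and 7423, 7920, 11630 and 6803 in the knockout, at -0.18 (DESeq2 adjusted p = 0.444). In both genes the groups overlapped, in Atp5g3 through knockout 3 alone, and without that library Atp5g3 was at -0.37 (DESeq2 adjusted p = 1.01e-05). Of the TPM of the 3 genes, Atp5g1 made up 61.9% ± 1.01 (SD, n = 4) in the wildtype and 64.5% ± 3.62 in the knockout, Atp5g3 36.7% ± 0.961 and 34.5% ± 3.48, and Atp5g2 1.39% ± 0.10 and 1.06% ± 0.278.

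Atp5g2 is uncertain. It counted 392, 338, 356 and 384 in the wildtype and 181, 322, 305 and 228 in the knockout, at -0.51 ± 0.19 (SE; DESeq2 adjusted p = 0.0247). A transcribed processed pseudogene, Gm10175 (GRCm38, chr7:23946646-23947290), is identical to it over 645 bases and held 86.5% ± 1.09 of the joint expected counts in the wildtype and 88.2% ± 2.89 in the knockout, so that the division of reads between them was set by RSEM. With both summed the value was -0.30 (DESeq2 adjusted p = 0.0328), and the share of Atp5g2 with its copy in the TPM of the 3 genes was 10.7% ± 0.348 in the wildtype and 9.45% ± 0.247 in the knockout, with no overlap between the groups. Atp5l has a smaller copy of this kind, Gm10221, which held 8.03% and 7.08% of the joint counts. The log2 ratio of Atp5g1 to Atp5g2 was 5.40 ± 0.11 (SD, n = 4) in the wildtype and 5.84 ± 0.41 in the knockout. In exact permutation tests over the 70 assignments of libraries, two-sided, the ratios of the 3 pairs gave p = 0.0857 for Atp5g1 to Atp5g2, 0.2 for Atp5g2 to Atp5g3 and 0.257 for Atp5g1 to Atp5g3, and 0.257 for each after adjustment over the 3 pairs. The smallest p possible was 0.0286. Without knockout 2 the first pair differed by 0.58 and the second by -0.41, both with an adjusted p of 0.0429 in the exact permutation test, so that these results rest on that library. With the copies summed, the differences between knockout and wildtype went from 0.44 to 0.25 for Atp5g1 to Atp5g2 and from -0.28 to -0.095 for Atp5g2 to Atp5g3. The adjusted p values of these pairs in the exact permutation test were then 0.0857 and 0.4, and that of Atp5g1 to Atp5g3 was 0.386.

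Within each complex the mRNAs differed in how far they stood from the wildtype, and this was visible inside single libraries. In knockouts 2 and 4 all 29 subunits were below all 4 wildtype libraries, and in knockout 1 this held for 4 of 4 in complex II, 8 of 9 in complex III and 14 of 16 in complex V, whereas in knockout 3 it held for 3, 6 and 7. The pairs compared are the subunits with the lowest and the highest log2 fold change of each complex, so they are a description with no test. The ratio of Sdhc to Sdhd in TPM was 0.758 ± 0.0338 (SD, n = 4) in the wildtype and 0.562 ± 0.0343 in the knockout. Uqcr11 to Uqcr10 went from 1.68 ± 0.0333 to 0.965 ± 0.0611, and Atp5k to Atp5d from 2.75 ± 0.035 to 1.57 ± 0.219. The groups did not overlap in any of the 3 ratios, and knockout 3 had the lowest ratio in each.

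**Figure D3:**
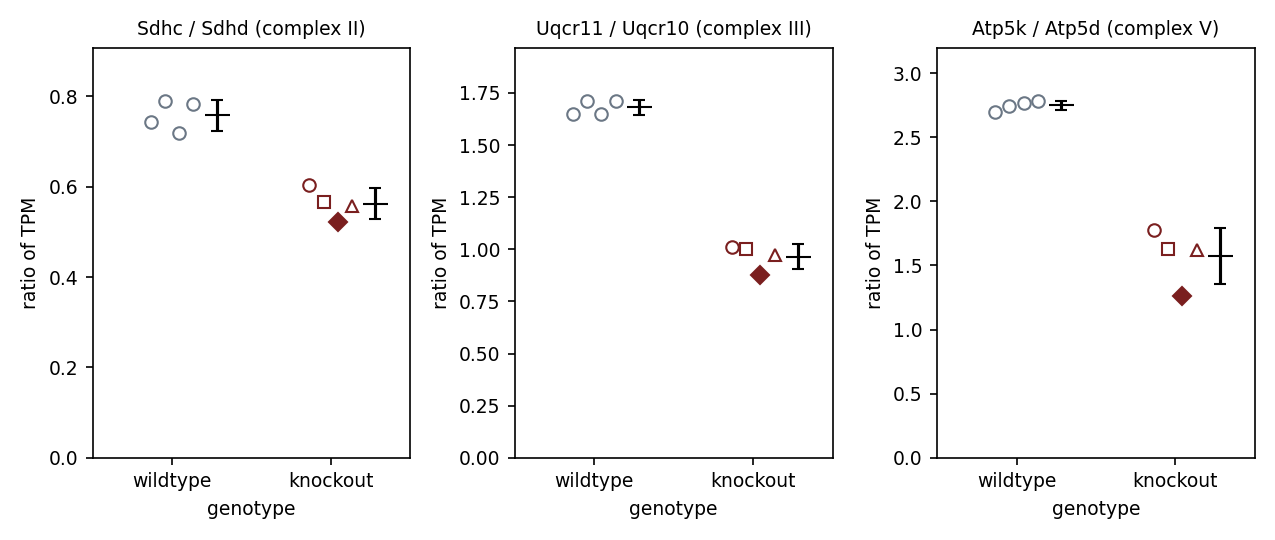
Each panel gives the ratio of TPM of the subunit with the lowest to that with the highest log2 fold change in a complex (vertical axis, from 0) in the 4 wildtype and 4 knockout libraries (points), with the mean and SD as the black bar. Knockout 3 is the filled diamond; the knockout ratios all lie below the wildtype ratios, for Uqcr11 to Uqcr10 at 0.877 to 1.01 against 1.65 to 1.71.

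Set side by side, the complexes differed in their medians by less than the spread of their own subunits. Complex II ranged from -0.59 to -0.15, complex III from -0.79 to 0.02 and complex V from -0.77 to 0.05. The median over the subunits of a complex, relative to the wildtype mean, was lowest for complex II in each knockout library. In knockout 1 it was -0.39 for complex II, -0.28 for complex III and -0.30 for complex V. Knockout 2 had -0.53, -0.35 and -0.29 and knockout 4 had -0.58, -0.54 and -0.47 in the same order. In knockout 3 the medians were -0.19, -0.08 and 0.03, so that the complex V subunits were on balance at the wildtype level there. The subunits of a complex share their libraries and are no replicates, and no test between complexes was made.

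Leaving out knockout 3 raised the number of members lower in the knockout from 15 to 25, with 4 of 4 in complex II, 7 of 9 in complex III and 14 of 16 in complex V, beside 16.2% of all genes. The medians were then -0.50, -0.38 and -0.38. The members that did not pass even then were Uqcrc2, Uqcr10, Atp5g1, Atp5d and Atp5s. Leaving out another library could undo the calls nearest to the threshold. Uqcrb lost its call without any 1 of the other 7 libraries, Atp5g2 without knockout 1 or 4 or wildtype 1, 3 or 4, Sdhb without knockout 2 or 4 or wildtype 1 or 4, and Uqcrc1 without knockout 2 or wildtype 2, with DESeq2 adjusted p values up to 0.0965, 0.0973, 0.0648 and 0.0558 in that order. Knockout 3 was the highest knockout library in 25 of the 29 subunits and in 36.1% of the 15754 genes that averaged 10 or more normalised counts. Knockout 4 was the lowest in 27 of 29 and in 21.1% of those genes. The median SD within a group, on the log2 scale, was 0.035 in the wildtype and 0.20 in the knockout for the subunits, and 0.165 and 0.274 for those 15754 genes, most of which have lower counts.

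Per length, Sdhb was the most abundant complex II mRNA at 252 ± 6.04 TPM (SD, n = 4), followed by Sdha, Sdhd and Sdhc at 104 ± 3.02 TPM, and the order was the same in the knockout. In complex III Uqcr11 led in the wildtype with 517 ± 16.8 TPM and with 270 ± 20.4 TPM in the knockout came after Uqcrh, Uqcr10 and Uqcrb, although the knockout levels of these 4 mRNAs overlap within their SD. Uqcrc2, Uqcrq, Cyc1 and Uqcrfs1, at 203 to 184 TPM in the wildtype, overlapped with their neighbours in that order. In complex V Atp5b was first in both groups, at 1235 ± 55.0 and 983 ± 87.9 TPM, and Atp5g2 last at 18.1 ± 1.21 and 11.6 ± 2.99 TPM, a level that rests on the division of reads with Gm10175. Atp5k dropped from the fifth to the ninth place and Atp5e from the tenth to the thirteenth, places that overlap with neighbours. In the wildtype Atp5k was at 521 ± 14.1 TPM and Atp5h at 526 ± 20.2 TPM. In the knockout Atp5e was at 182 ± 12.9 TPM, Atp5f1 at 187 ± 11.1 TPM and Atp5d at 178 ± 18.6 TPM. TPM is a share of all RNA, mitochondrial rRNA included, so only the order is compared between the groups here. Across the 29 subunits, mRNA length and log2 fold change had a Spearman correlation of 0.14, a description over genes of the same libraries.

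**Figure D4:**
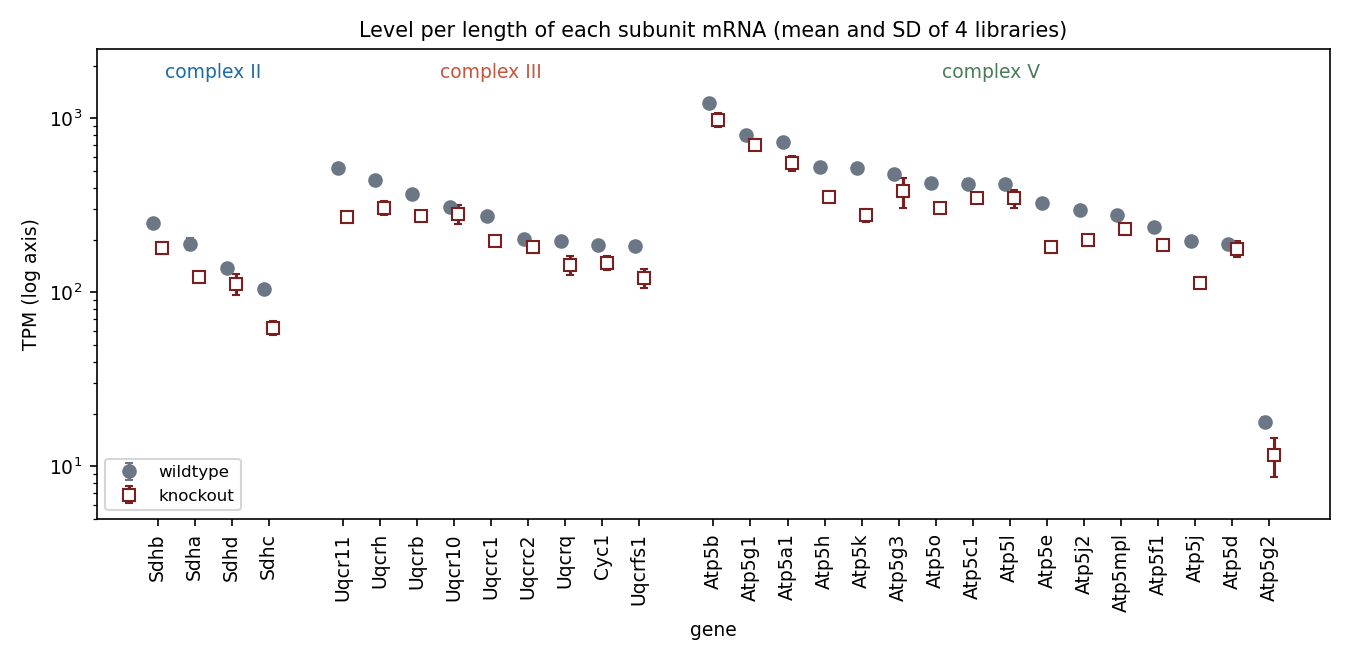
The plot gives the level per length of each of the 29 subunit mRNAs in TPM (vertical log axis), ordered by wildtype level within each complex, as the mean and SD of 4 wildtype (grey circles) and 4 knockout (open squares) libraries. Uqcr11 stands at 517 TPM in the wildtype and 270 TPM in the knockout, while Uqcr10 is below it in the wildtype at 308 TPM and above it in the knockout at 281 TPM.

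The direction of the change depends on how the libraries are scaled, and the share of mitochondrial rRNA given above differs between the groups. With total counts as size factors all 30 members were lower, beside 29.6% of all genes, and the medians of complexes II, III and V were -0.72, -0.64 and -0.54 around an all-gene median of -0.30. With total counts without mitochondrial rRNA, 4 members were lower and 11 higher, beside 5.26% and 37.8% of all genes, and the medians were -0.001, 0.09 and 0.19 around an all-gene median of 0.43. Relative to the all-gene median the complexes stood at -0.43, -0.34 and -0.24 under the first and at -0.44, -0.34 and -0.25 under the second, against -0.42, -0.33 and -0.24 in the median-of-ratios fit. The 4 members lower under every setting tried, 17 in all, were Uqcr11, Atp5k, Atp5e and Atp5j, 1 small subunit of complex III and 3 subunits of complex V.

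**Figure D5:**
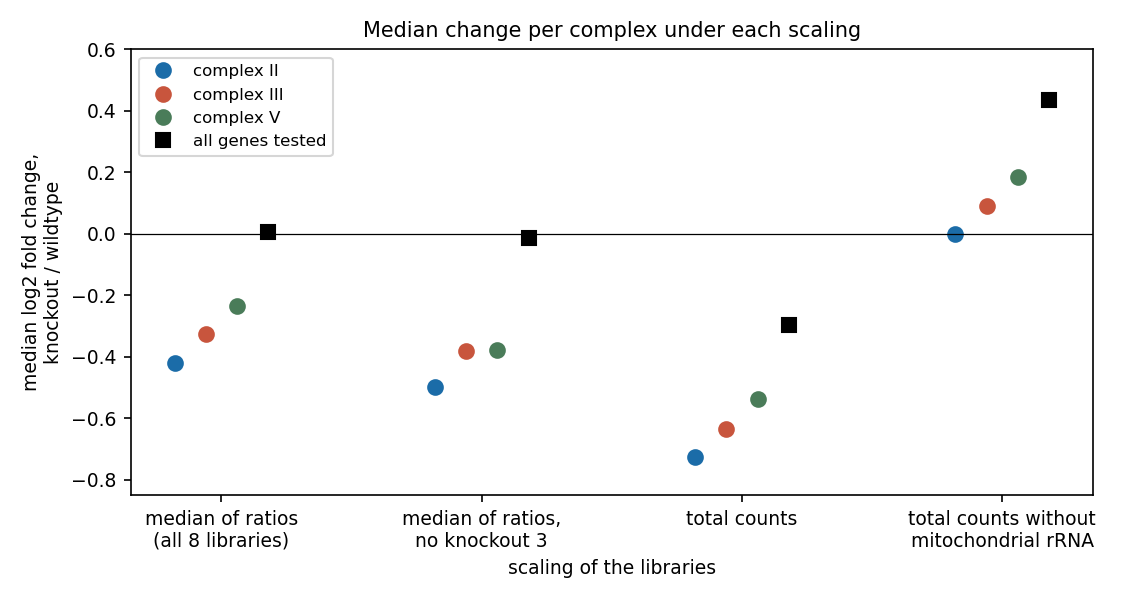
The plot gives the median log2 fold change (vertical axis) of the subunits of complexes II, III and V (circles) and of all genes tested (black squares) under 4 scalings of the libraries (horizontal axis). The circles lie below the squares in each setting while the level of all of them shifts with the scaling, from -0.30 to 0.43 for all genes. Without knockout 3 the complex V median moves from -0.23 to -0.38, with all genes at -0.013.

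The mitochondrially encoded partners changed far more than the nuclear subunits. mt-Cytb, the only complex III subunit made in mitochondria, went from 357000 ± 10900 to 47760 ± 6200 normalised counts (SD, n = 4), a log2 fold change of -2.90 ± 0.11 (SE). The bicistronic mt-Atp8_6 mRNA of complex V went from 536700 ± 15800 to 27780 ± 4740, or -4.27 ± 0.13. Complex II has no such partner.

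Other genes of the pathway were counted in lists chosen by function, beside the 15.5% of all genes that were lower and the 18.2% that were higher. Of 37 nuclear complex I subunits, 25 were lower and 0 higher with a median of -0.37, led by Ndufv3 at -0.81 and Ndufs1 at -0.72. Of 15 nuclear complex IV subunits, 5 were lower and 2 higher; Cox7a1, the muscle form of subunit 7a, was at -1.65 and Cox6a1, the form of subunit 6a found outside muscle, at 1.45. Both values are larger in size than that of Uqcr11, the most changed member. Of 14 assembly factors and regulators of the 3 complexes, 4 were lower and 2 higher. Atpif1, the inhibitor of ATP hydrolysis by the ATP synthase, rose from 1008 ± 56.3 to 2397 ± 386 normalised counts (SD, n = 4), or 1.25 on the log2 scale (DESeq2 adjusted p = 9.84e-20). Sdhaf4, which helps to mature SDHA, fell by 0.76 on the log2 scale (DESeq2 adjusted p = 5.95e-06).

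Of 13 other citric acid cycle enzymes 3 were lower and 0 higher, with a median of -0.16; Idh3b was at -0.53 and Fh1, the fumarase that follows complex II in the cycle, at -0.49. Of 4 carriers, 0 were lower and 1 was higher, namely Slc25a5, an adenine nucleotide translocase, at 1.48 (DESeq2 adjusted p = 1.49e-19), whereas Slc25a4, the form of heart and muscle, was at -0.21 (DESeq2 adjusted p = 0.336). Of 9 transcriptional regulators of these genes, 4 were lower and 0 higher. The coactivators Ppargc1b (340 ± 69.9 normalised counts against 679 ± 121 in the wildtype) and Ppargc1a (1574 ± 461 against 2442 ± 161) were both lower, with DESeq2 adjusted p values of 2.11e-06 and 0.00573. Without knockout 3 the genes lower numbered 33 in complex I, 9 in complex IV, 4 among the assembly factors, 8 among the cycle enzymes, 3 among the carriers and 5 among the regulators. Those higher numbered 0, 2, 2, 0, 1 and 0 in the same order. Among all genes 3265, or 16.2%, were then lower and 3704 higher. These directions too are relative to the scaling: with total counts without mitochondrial rRNA, 2 of the 37 complex I subunits were lower and 7 higher, 0 of the 13 cycle enzymes were lower and 10 higher, 3 of the 15 complex IV subunits were lower and 7 higher, 0 of the 14 assembly factors and regulators were lower and 3 higher, 0 of the 4 carriers were lower and 2 higher, and 1 of the 9 transcriptional regulators was lower and 2 higher, beside 5.26% lower and 37.8% higher of all genes, whereas 4 of the 6 cardiomyocyte markers described next were lower and 1 higher.

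Markers of the cell types in the heart were counted as well, beside the 15.5% of all genes that were lower and the 18.2% that were higher. The tissue label was borne out by the cardiomyocyte markers, all 6 of which were present. Of these 4 were lower in the knockout and 0 higher, with a median of -0.96, and their summed normalised counts lay at 780700 to 902200 in the wildtype and 388900 to 524100 in the knockout. These sums came mostly from Myh6, and among the knockouts they were highest in knockout 3 and lowest in knockout 4. Single markers differed in this order. Myh6 and Tnni3 were highest in knockout 1, at 335600 and 29460, and Tnnt2, Actn2 and Ryr2 were lowest there, at 51110, 18160 and 23720. Of 5 fibroblast markers 3 were higher and 0 lower, with sums of 14960 to 15920 and 16570 to 53890, the lowest knockout sum in knockout 3. Of 4 macrophage markers 2 were higher and 0 lower, with sums of 2641 to 3538 and 2265 to 6211. Of 4 atrial markers 2 were lower and 0 higher, with sums of 9980 to 12040 and 1268 to 6012, again lowest in knockout 3. None of 4 endothelial (sums 11640 to 12480 and 8231 to 14330), 4 erythroid (15260 to 19690 and 10920 to 41070) or 3 adipose markers (42.6 to 167 and 20.2 to 143) passed in DESeq2. Among 4 skeletal muscle markers 1 was lower and 1 higher, and Myh4 was at or under 3 counts in every library; their sums, mostly from Ckm, which the heart also expresses, were 26440 to 29480 and 16000 to 23670. Without knockout 3 the markers lower numbered 5 for cardiomyocytes and 3 for the atria, those higher 3 for fibroblasts, 4 for macrophages and 1 for the endothelium, and again 0 erythroid or adipose markers passed in DESeq2; the erythroid median went from 0.55 to 0.16. The part of these cell types in the fall of the subunits was not tested, and in whole hearts fewer cells of a type and less RNA per cell cannot be told apart.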

How the data were processed

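Whole-heart total RNA, depleted of cytoplasmic rRNA, was sequenced from 4 Lrpprc knockout and 4 wildtype mice, and samples were grouped by their titles. The authors ran RSEM 1.2.31 with bowtie2 on the paired reads, set to reverse strand, with GENCODE transcripts and their own mitochondrial sequences with added adenines as the reference (mm10). This gave the deposited expected counts, which are estimates because reads that fit several genes are shared out, and the deposited TPM values. The authors also gave an effective length in bases for each gene. A deposited table of the authors' comparison (mean, fold change and p-values) was not used, nor were the 8 columns of a table of normalised counts, whose names match no sample label.

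Expected counts were rounded. All genes and all 8 libraries entered 1 fit in DESeq2 1.42.0 (R 4.3.3), in which genotype was the term, size factors were medians of ratios and effective lengths were an offset (0 set to 1), after the study's route through tximport and DESeq2. Fold changes were not shrunk, and the Benjamini-Hochberg threshold was 0.05. edgeR 4.0.16 was an alternative. Both were tested on simulated data, where the share of unchanged genes among those that DESeq2 called was above the share the threshold implies, and above that of edgeR. The simulation held far fewer changed genes than were called here, so the size of that share need not hold for these calls. Calls near the threshold are to be read with caution. Depth was 35218541 to 47743376 counts per library, and p values measure the spread between 4 animals a group. TPM was used for levels and ratios, with 1 added before logarithms of the Atp5g ratios. GENCODE M21 gave a symbol to 50339 of 50563 Ensembl identifiers. A near-identical copy was a blastn 2.17.0+ match of 95% identity or more, 100 bases or longer, that covered 50% or more of the copy.

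Every member was counted. Those named were the Sdh genes, Cyc1, the Atp5g genes, the 4 most and 2 least changed of complexes III and V, members whose call turned with a scaling, and, of each context list, the 2 most changed that passed the threshold; Usmg5, Slc25a4 and the remaining subunits with values were named after their values were seen. The members and lists were chosen with earlier results of these data known. The alternatives were edgeR, no length offset, a filter on low counts, other scalings, summed copies, a replicate block and each library left out.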

Additional observations from a re-analysis of the deposited data

Results flagged for a closer look

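In 4 of 66 groups of 4 libraries checked, 1 library was further from the other 3 than Dixon's 95% limit allows; chance alone would give about 3.3. The normalised count of Uqcr11 in wildtype 4 was 5143, against 5279 to 5301 in the other wildtype libraries. That of Uqcrh in wildtype 1 was 6381, against 6006 to 6066. That of Cyc1 in wildtype 3 was 7177, against 6920 to 6940. These 3 wildtype values differ from their neighbours by a few percent. The normalised count of Atp5b in knockout 3 was 70670, while knockouts 1, 2 and 4 gave 52640 to 55560; knockout 3 was also the highest knockout library for most other subunits.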

How the results depend on the processing

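The median-of-ratios fit called 15 members lower and 0 higher. With edgeR or the low-count filter, Atp5a1 and Uqcrq passed as well, with no length offset Uqcrq did, and nuclear size factors or summed copies changed no call. The wider planned version of the summed copies was not run, since it would add genes that share only a repeat. Total-count scaling gave 30 lower in all, 9 in complex III and 16 in complex V, with medians of -0.72, -0.64 and -0.54 for complexes II, III and V, and turned Atp5d (-0.26) and Uqcr10 (-0.29). Total counts without mitochondrial rRNA gave 4 lower (0, 1 and 3 in complexes II, III and V) and 11 higher (1, 3 and 7), with medians of -0.001, 0.092 and 0.19. There the sign turned in Atp5b (0.23), Atp5c1 (0.29), Atp5f1 (0.22), Atp5g1 (0.37), Atp5l (0.29), Atp5mpl (0.28), Atp5o (0.085), Cyc1 (0.22), Sdhb (0.08), Sdhd (0.27), Uqcrb (0.14), Uqcrc1 (0.088), Uqcrc2 (0.40) and Uqcrh (0.03), and also in Atp5a1 (0.15), Atp5g3 (0.23), Uqcrq (0.09) and Atp5s (0.25), which passed the test neither here nor in the median-of-ratios fit. The scaling itself makes this shift, since it moves the median of all genes to -0.30 or 0.43.

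Leaving out 1 library at a time gave 12 to 25 members lower and 0 to 0 higher, with 2 to 4, 3 to 7 and 6 to 14 lower in complexes II, III and V; the medians were -0.50 to -0.37, -0.38 to -0.22 and -0.38 to -0.18. The highest counts were without knockout 3. The log2 ratios moved from 0.25 to 0.58 (Atp5g1 to Atp5g2), 0.06 to 0.24 (Atp5g1 to Atp5g3) and -0.41 to -0.19 (Atp5g2 to Atp5g3); without knockout 2 the ratios with Atp5g2 reached an adjusted p of 0.0429 in the exact permutation test.

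Same-numbered libraries deviated from their group means with correlations of -0.014, -0.044, -0.074 and 0.072, and only wildtype 4 correlated best with its own number. The labels do not say whether the numbers pair the samples. Correlations this small cannot decide it, since a weak pairing could give them too. A replicate block gave 14 lower, losing Atp5g2 and Uqcrb and gaining Uqcrq. Whether depth limits any member was not tested; Atp5g2 and Atp5s had the lowest counts.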
